A study of Mus musculus with 6 samples.

Results

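Notch pathway ligands, receptors and targets were followed in mouse jejunal organoids, with and without induced deletion of the nuclear receptor gene Hnf4a. Such organoids hold the epithelium of the small intestine without its surrounding tissue. The genes were chosen by symbol as ligands (Dll1, Dll4, Jag1, Jag2), receptors (Notch1, Notch2) and targets or modulators (Hes1, Lfng, Nrarp). A list of 10 symbols defined the set, 9 of them were measured among 18448 genes, and Heyl was not analysed here. All 9 were abundant enough to be tested.

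Poly(A) RNA was sequenced from 6 libraries, 3 per group, at day 2 after the last passage. Every organoid culture was of C57BL/6 background, had the genotype Villin-CreERT2; Hnf4aflox/flox (floxed Hnf4a, and a Cre that tamoxifen activates, driven in gut epithelium by the villin promoter) and grew with 200 ng/mL recombinant Wnt3A. One group received 0.5 µM 4-hydroxytamoxifen (4OHT), the active form of tamoxifen, for 24 hours to delete Hnf4a, and the other received the vehicle DMSO. Neither group received 4OHT without floxed alleles, so effects of 4OHT or Cre activity and of Hnf4a loss cannot be told apart. The labels do not say that replicates came from separate animals or cultures, so the spread behind each p-value is that of the 6 libraries and may be technical.

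Notch signalling passes between touching cells. A ligand on one cell binds a receptor on its neighbour, the receptor is cut by an ADAM protease and then by gamma-secretase, and its freed intracellular part joins RBPJ and a Mastermind protein on DNA to switch on genes such as Hes1. In the intestinal crypt, Dll1 and Dll4 on secretory cells keep neighbouring stem and progenitor cells in a Notch-active state, in which Hes1 represses Atoh1, the factor that starts secretory differentiation.

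Library totals ran from 31537100 to 40276242 counts, and Hnf4a was 2.02-fold lower after 4OHT (log2 fold change -1.01, edgeR adjusted p = 0.0124), from 839.8 to 1021 CPM in DMSO to 423.7 to 481.7 CPM (counts scaled to the library size). That call held with the replicate block and on leaving out DMSO replicate 3, and was lost on leaving out any of the other 5 libraries (adjusted p 0.0572 to 0.0951). Hnf4a transcript was thus reduced and not absent, at a mean of 447.1 CPM after 4OHT beside 902.3 CPM in DMSO. The source of the remaining transcript was not tested. DMSO replicate 3 stood apart from its group: a chi-square of the counts, divided by its degrees of freedom, was 64.2 and 58.5 against DMSO replicates 1 and 2, beside 7.86 between those. It also held more transcripts of the 10 enterocyte markers, with a summed level of 6997 CPM beside 3178 to 3492 CPM in the other DMSO libraries and 2261 to 3868 CPM after 4OHT. Its 9 stem cell markers summed to 1637 CPM, beside 1898 and 2039 CPM in the other DMSO libraries and 1798, 1819 and 1412 CPM in 4OHT replicates 1, 2 and 3, so replicate 3 was the lowest in both groups. All 8 epithelial markers were present, at a summed 13200 to 19390 CPM. Of the markers of cells that organoids should lack, the endothelial genes Pecam1 and Tie1 had 11 to 19 and 3 to 8 counts per library, the immune gene Ptprc had 0 to 5, and the fibroblast gene Col1a1 had 1 to 13. Summed levels were 6.17 to 13.0 CPM for 4 endothelial markers, almost all from Esam, 1.22 to 2.12 CPM for 4 mural markers, 4.44 to 7.60 CPM for 3 fibroblast markers, led by Vim, and 4.76 to 6.77 CPM for 5 immune markers, led by Cd68. A single gene made up most of the endothelial and fibroblast sums: Esam had 181 to 435 counts per library and Vim 152 to 264. Of the immune genes, Cd68 had 71 to 172 counts and Itgam 40 to 87, and Itgam exceeded Cd68 in DMSO replicate 3. Mean Cd68 was 2.70 CPM with DMSO against 4.18 with 4OHT (log2 fold change 0.62, edgeR adjusted p = 0.15). Its groups did not overlap, as for 22.6% of all genes (12.5% higher). The part of Cd68-expressing cells in the Notch gene values was not tested.

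The comparison asks whether the Notch pathway genes differ after induced Hnf4a deletion, with part of its transcript remaining, under supplied Wnt3A. Of the 9 genes, 0 were called by edgeR, where 0.908% of the 14544 tested genes were called at an adjusted p under 0.05 (0.701% higher, 0.206% lower). DESeq2 (4.94% of all genes called) and limma-voom (0.846%) also called 0 of the 9. At an unadjusted edgeR p under 0.05, 0 were higher and 1, Dll4, was lower, beside 15% of all genes (8.65% higher, 6.35% lower). Libraries of the same replicate number deviated together, and with that number as a block 1 of the 9, Notch2, was called higher and 0 lower, beside 6.99% of all genes (3.99% higher, 3% lower). With the block 5 genes had an unadjusted p under 0.05 (Jag1, Jag2 and Notch2 higher, Dll4 and Lfng lower), beside 25.3% of all genes. The median log2 fold change was -0.03 over the 9 genes and 0.00 over all genes. Of the 9, 0 differed by 2-fold or more, beside 2.65% of all genes. In all 3 replicate pairs 3 were higher (Jag1, Jag2, Notch2) and 4 lower (Dll1, Dll4, Lfng, Hes1), so 7 of 9 kept 1 direction, beside 49.8% of all genes. Without replicate 3 of both groups 0 of the 9 were called (4.1% of all genes), and with the block added 4 were, Jag2 and Notch2 higher and Dll4 and Lfng lower (18.3% of all genes), from 2 pairs.

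Per length, as FPKM (CPM per kilobase of exon), Hes1 was the highest of the 9 genes in both groups and Nrarp the second. In DMSO the order went on with Dll1, Lfng, Jag1, Jag2, Dll4, Notch1 and Notch2, and after 4OHT with Jag1, Dll1, Jag2, Lfng, Notch2, Notch1 and Dll4. In DMSO, neighbours in that order were apart in all libraries for Hes1 and Nrarp, Dll4 and Notch1, and Notch1 and Notch2, and the others overlapped. After 4OHT this held for Hes1 and Nrarp, Nrarp and Jag1, Dll1 and Jag2, and Lfng and Notch2. With the longest transcript as the length in place of all exons, Notch1 (5.78 and 5.66 FPKM) ranked above Dll4 (4.39 and 3.60) and Notch2 (3.25 and 4.09) in both groups, so the order of Dll4 and Notch1 in DMSO and of Notch1 and Notch2 after 4OHT turned with the length used. Lfng was at 9.87 ± 1.699 FPKM in DMSO and 7.61 ± 2.07 FPKM after 4OHT (SD, n = 3).

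**Figure D1:**
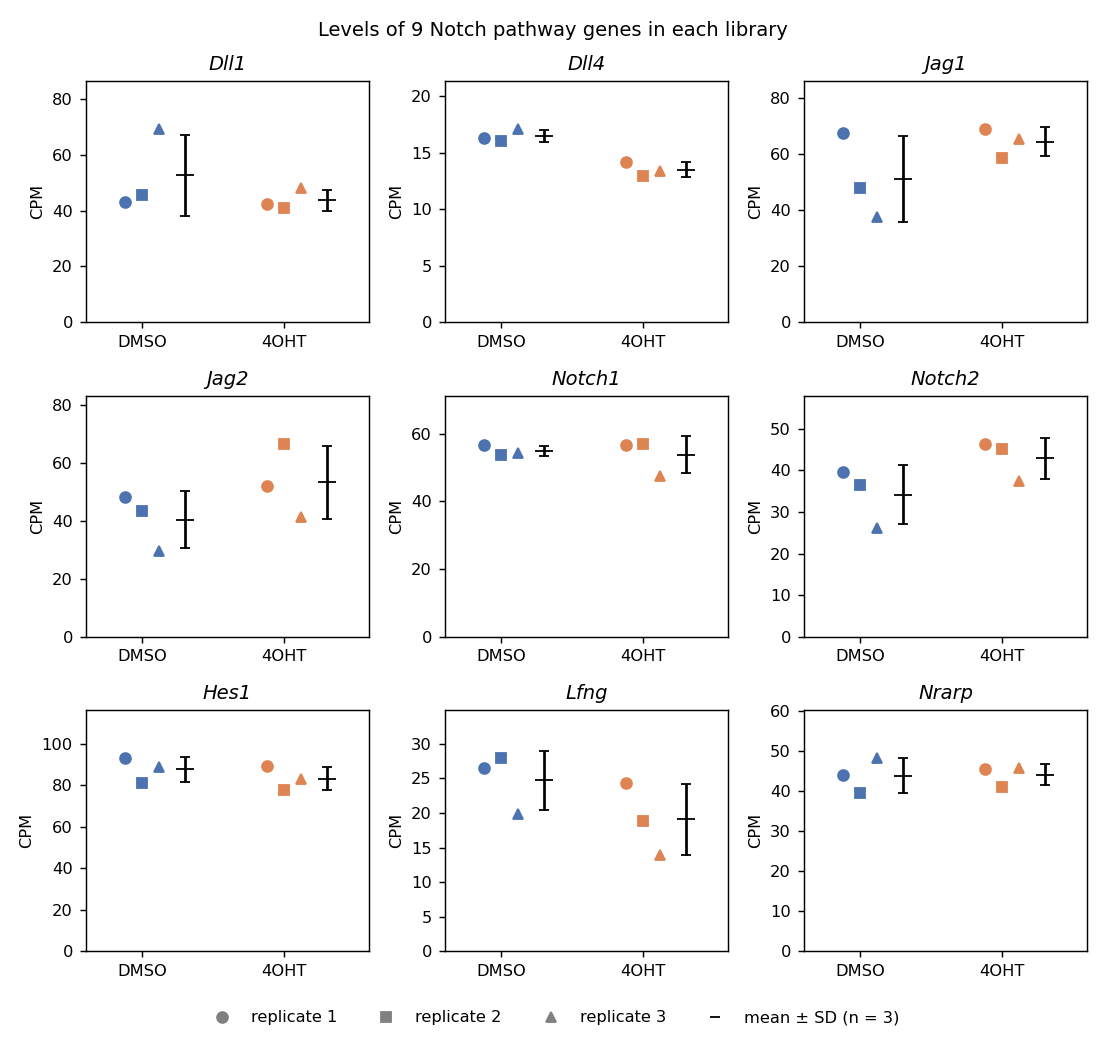
CPM (vertical axes, from 0) of each gene in the DMSO and 4OHT libraries, one symbol per replicate number, with the mean and SD of 3 libraries in black. Dll4 is the gene whose groups do not overlap (16.0 to 17.1 CPM in DMSO, 12.9 to 14.2 CPM after 4OHT), and DMSO replicate 3 is the lowest of the 6 libraries for Jag1, Jag2 and Notch2 and the highest for Dll1, Dll4 and Nrarp (lowest or highest for 57% of all genes).

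**Figure D2:**
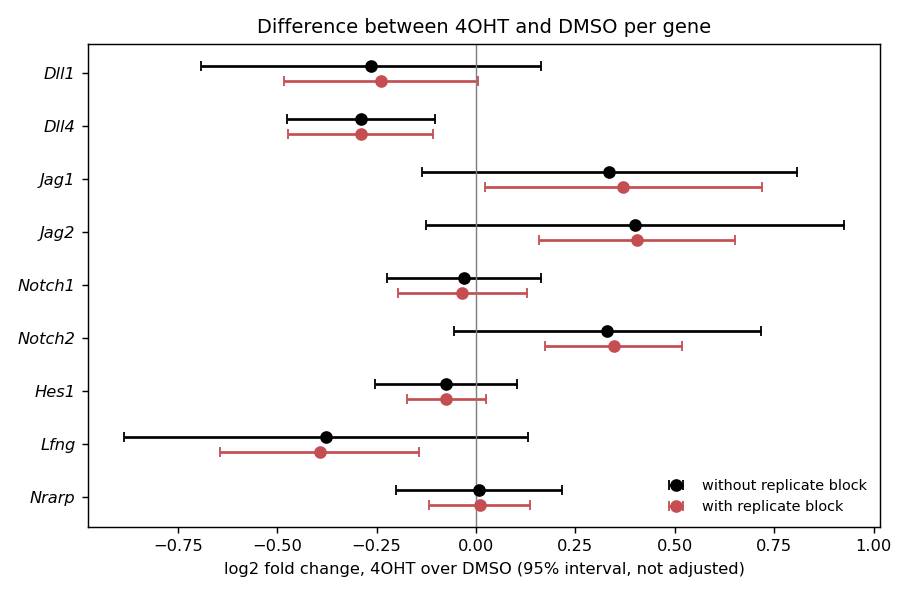
Log2 fold change of 4OHT over DMSO (horizontal axis) with its 95% interval, unadjusted, from edgeR without (black) and with (red) the replicate number as a block. The interval lies on one side of 0 for Dll4 in both fits and for Jag1, Jag2, Notch2 and Lfng with the block.

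The Delta-type ligands had lower means after 4OHT. Dll4, a ligand presented by secretory cells of the crypt, measured 16.3, 16.0 and 17.1 CPM in DMSO replicates 1, 2 and 3 and 14.2, 12.9 and 13.3 CPM in the 4OHT replicates. Each 4OHT library lay below each DMSO library, and Dll4 was the only one of the 9 genes for which the groups did not overlap (22.6% of all genes, 10.1% lower). Mean CPM was 16.5 ± 0.530 with DMSO and 13.5 ± 0.648 with 4OHT (SD, n = 3), which is 1.22-fold lower, with a log2 fold change of -0.29 (SE 0.0786, 95% interval -0.48 to -0.10). The edgeR adjusted p was 0.15 and 0.0745 with the block, so the difference missed the threshold in both fits.

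Dll1, the other main Delta-type ligand of the crypt, measured 43.1, 45.7 and 69.2 CPM with DMSO against 42.4, 40.9 and 48.1 with 4OHT. DMSO replicate 3 was far above the other 5 libraries, and the groups overlapped. The log2 fold change of Dll1 was -0.26 (SE 0.181, 95% interval -0.69 to 0.16, edgeR adjusted p = 0.55, and 0.207 with the block). Without DMSO replicate 3 the log2 fold change of Dll1 was -0.02 (adjusted p = 0.92).

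The Jagged-type ligands had higher means after 4OHT. Jag1, best known from vascular, biliary and ear development and also made in epithelia, measured 67.5, 47.9 and 37.3 CPM with DMSO against 68.8, 58.7 and 65.4 with 4OHT. The DMSO libraries were widely spread and the 4OHT libraries sat near the top of that spread. The log2 fold change of Jag1 was 0.34 (SE 0.20, 95% interval -0.14 to 0.81, adjusted p = 0.489, and 0.176 with the block). Within pairs the log2 ratio of Jag1 was 0.03, 0.29 and 0.81, and the log2 fold change was 0.15 without DMSO replicate 3 (adjusted p = 0.667) and 0.59 without DMSO replicate 1 (adjusted p = 0.139).

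Jag2, the second Jagged ligand, measured 48.2, 43.4 and 29.5 CPM with DMSO against 52.0, 66.5 and 41.4 with 4OHT. Replicate 3 was the lowest of its group in both, and each 4OHT library exceeded the DMSO library of the same number. The log2 fold change of Jag2 was 0.40 (SE 0.223, 95% interval -0.13 to 0.93, adjusted p = 0.458), and with the block the SE was 0.0999 and the adjusted p 0.07. Without 4OHT replicate 2 or DMSO replicate 3 the log2 fold change of Jag2 was 0.21 (adjusted p = 0.755 and 0.625). Jag1 and Jag2 thus missed the threshold in both fits.

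Among the ligands the FPKM order was Dll1, Jag1, Jag2 and Dll4 in DMSO and Jag1, Dll1, Jag2 and Dll4 after 4OHT. Mean FPKM in DMSO was 12.5 ± 3.42 for Dll1, 8.74 ± 2.63 for Jag1, 5.80 ± 1.39 for Jag2 and 4.27 ± 0.138 for Dll4 (SD, n = 3). After 4OHT it was 10.4 ± 0.893, 11.0 ± 0.883, 7.65 ± 1.81 and 3.50 ± 0.168 in the same order. Dll1 and Jag1 overlapped in both groups, so their order did not exceed the spread between libraries. With the longest transcript, Dll1 was above Jag1 after 4OHT too (12.2 and 11.5 FPKM).

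Jag1 and Jag2 together made up 56.2%, 49.1% and 33.8% of the summed FPKM of the 4 ligands in DMSO replicates 1, 2 and 3 and 58.4%, 60.05% and 53.6% in the 4OHT replicates. DMSO replicate 3 had the lowest share, and the groups overlapped because DMSO replicate 1 lay above 4OHT replicate 3. The Dll4 share was 12.9%, 14.1% and 14.1% in DMSO and 11.15%, 10.25% and 10.8% after 4OHT, with no overlap. These shares are a description and were not tested. In DMSO replicate 3, the library with the high enterocyte marker sum, Dll1 made up 52.1% of the ligand FPKM, beside 29.7% to 36.8% in the other 5 libraries; the part of cell composition in this was not tested. In such bulk samples, fewer cells of a type and less RNA per cell cannot be told apart.

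**Figure D3:**
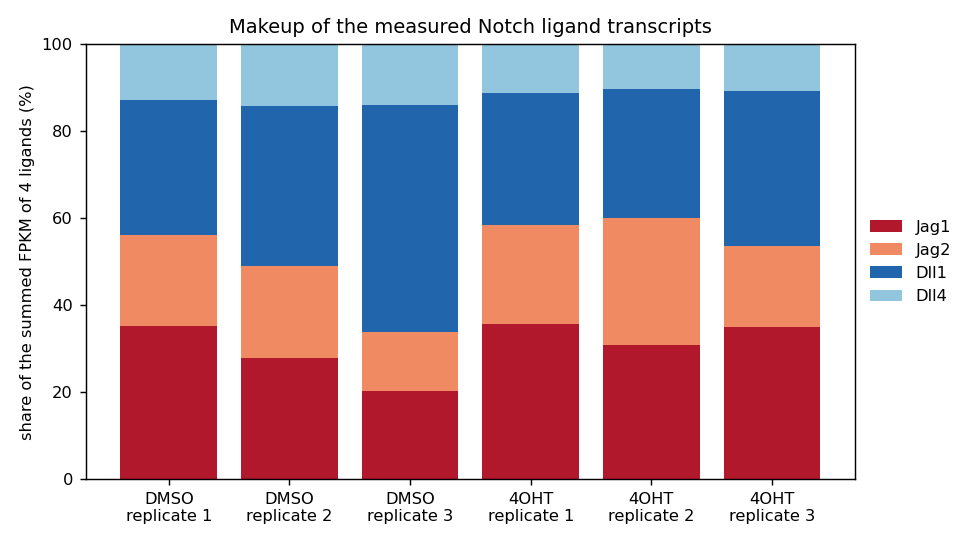
Share of each ligand gene in the summed FPKM of Dll1, Dll4, Jag1 and Jag2 (vertical axis, percent), one bar per library. Jag1 and Jag2 (red shades) hold 33.8% in DMSO replicate 3 and 49.1% to 60.05% in the other 5 libraries.

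Of the receptors, Notch2 was higher after 4OHT in the paired fit and Notch1 was not called in either fit. Notch2, which acts beside Notch1 in crypt cells, measured 39.7, 36.5 and 26.1 CPM with DMSO against 46.4, 45.1 and 37.3 with 4OHT. Each 4OHT library exceeded its DMSO partner, but 4OHT replicate 3 was below DMSO replicate 1, so the groups overlapped. Group means of 34.1 ± 7.12 and 42.9 ± 4.91 CPM (SD, n = 3) gave a 1.26-fold difference with a log2 fold change of 0.33 (SE 0.163, 95% interval -0.05 to 0.72, edgeR adjusted p = 0.404). With the replicate block Notch2 rose (0.35, SE 0.0695, 95% interval 0.17 to 0.52, adjusted p = 0.0446), on log2 ratios of 0.22, 0.30 and 0.52 within the 3 pairs. Without DMSO replicate 3 the unblocked log2 fold change of Notch2 was 0.16 (adjusted p = 0.496). Without replicate 3 of both groups it was 0.26 with the block.

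Notch1, the receptor most studied in intestinal stem cells, measured 56.5, 53.6 and 54.4 CPM with DMSO against 56.7, 57.0 and 47.5 with 4OHT. 4OHT replicate 3 was lower than the other 5 libraries, which lay within 53.6 to 57.0 CPM. The log2 fold change of Notch1 was -0.03 (SE 0.0824, adjusted p = 0.90), and its 95% interval of -0.22 to 0.16 corresponds to 0.856-fold to 1.12-fold. On the FPKM scale Notch1 and Notch2 were close, at 3.85 ± 0.104 and 3.16 ± 0.660 in DMSO and 3.78 ± 0.382 and 3.98 ± 0.455 after 4OHT. The Notch2 share of the summed FPKM of these 2 receptors was 48.1%, 47.3% and 38.8% in DMSO and 51.9%, 51.1% and 50.9% after 4OHT, with no overlap. With the longest transcript as the length, the Notch2 share was lower in every library (30.2% to 38.8% and 41.5% to 42.5%). With 2 genes a change of length cannot reorder the libraries, so the lack of overlap there adds nothing. The CPM of each of the 2 receptors overlapped between the groups. The share was not tested, and how often shares of other gene pairs lack overlap was not counted.

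The receptor gene Notch3, which was not among the 9 genes, was the only one of 4 further ligands and receptors tested that was called, and it rose after 4OHT. Notch3, known mainly from mural cells of blood vessels, measured 8.09, 6.86 and 5.72 CPM with DMSO against 15.7, 17.4 and 13.8 with 4OHT. All 3 4OHT libraries lay well above all DMSO libraries. Group means of 6.89 ± 1.19 and 15.7 ± 1.801 CPM (SD, n = 3) gave a log2 fold change of 1.18 (SE 0.153, edgeR adjusted p = 0.0284, and 0.00863 with the block). Per length Notch3 was below Notch1 and Notch2, at 0.852 FPKM in DMSO and 1.94 FPKM after 4OHT, beside 0.866 and 1.03 FPKM for Notch4. Notch4 itself, an endothelial receptor, was at 6.98 and 8.28 CPM (0.25, adjusted p = 0.624). The ligand gene Dll3 was at 0.674 and 0.645 CPM (-0.07, adjusted p = 0.921) and Dlk2, which encodes a Delta-like relative, at 0.383 and 0.405 CPM (0.06, adjusted p = 0.974). Of 7 mural markers named, the 4 measured summed to 1.22 to 2.01 CPM in DMSO and 1.804 to 2.12 CPM after 4OHT. The part of mural cells in the Notch3 values was not tested. Notch3 lost its call on leaving out DMSO replicate 1 (adjusted p 0.0632) or 2 (0.117), or 4OHT replicate 1 (0.136), 2 (0.09) or 3 (0.0899). Its log2 fold change in those fits was 1.10 to 1.31. Without DMSO replicate 3 the call held (1.06, adjusted p = 0.0164).

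**Figure D4:**
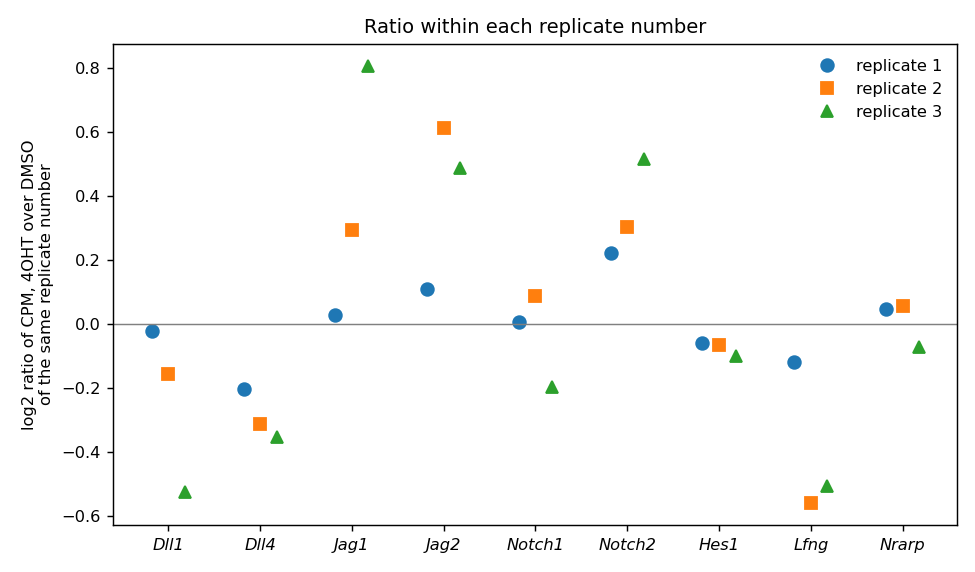
Log2 ratio of CPM between the 4OHT and DMSO libraries of the same replicate number (vertical axis) for each gene, one symbol per number. Jag1, Jag2 and Notch2 are above 0 and Dll1, Dll4, Hes1 and Lfng below 0 in all 3 pairs, and replicate 3 gives the ratio farthest from 0 for 7 of the 9 genes, beside 53.2% of all genes.

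The targets Hes1 and Nrarp showed small differences. Hes1, the transcriptional repressor that transmits the Notch signal in crypt progenitors, measured 93.0, 81.2 and 88.9 CPM with DMSO against 89.1, 77.7 and 83.0 with 4OHT. The groups overlapped, and replicate 1 was the highest and replicate 2 the lowest in both. The log2 fold change of Hes1 was -0.08 (SE 0.0758, edgeR adjusted p = 0.70), with a 95% interval of -0.25 to 0.10 (0.839-fold to 1.07-fold). With the block it was -0.08 with an SE of 0.0401 (adjusted p = 0.319), on log2 ratios of -0.06, -0.07 and -0.10. Hes1 was the highest of the 9 genes per length, at 43.1 ± 2.92 FPKM in DMSO and 40.9 ± 2.82 FPKM after 4OHT, above every library of any of the others.

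Nrarp, a target that feeds back to restrain the Notch transcription complex, measured 44.0, 39.4 and 48.1 CPM with DMSO against 45.4, 41.0 and 45.7 with 4OHT. The log2 fold change of Nrarp was 0.01 (SE 0.0886, adjusted p = 0.98), with a 95% interval of -0.20 to 0.22 (0.869-fold to 1.16-fold). Nrarp was second per length in both groups (17.0 and 17.1 FPKM), overlapping Dll1 in DMSO.

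Lfng, the fringe glycosyltransferase that adds sugar to fucose on Notch receptors and so shifts their response between Delta and Jagged ligands, measured 26.4, 27.9 and 19.9 CPM with DMSO against 24.3, 18.9 and 13.97 with 4OHT. Replicate 3 was lowest in both groups and each 4OHT library was below its DMSO partner, though 4OHT replicate 1 lay above DMSO replicate 3. Group means of 24.7 ± 4.26 and 19.1 ± 5.18 CPM (SD, n = 3) gave a log2 fold change of -0.38 (SE 0.215, 95% interval -0.89 to 0.13, adjusted p = 0.467). With the block the log2 fold change of Lfng was -0.39 (SE 0.101, adjusted p = 0.0763), which missed the threshold. Log2 ratios within pairs were -0.12, -0.56 and -0.51. Lfng had a log2 fold change of -0.20 without 4OHT replicate 3 (adjusted p = 0.706) and -0.60 without 4OHT replicate 1 (adjusted p = 0.374). Of the other genes that modify the receptor with sugars, Pofut1, Poglut1, Mfng and Rfng, 0 of 4 were called by edgeR (with or without the block), DESeq2 or limma-voom, and 0 had an unadjusted p under 0.05. Mfng, a second fringe, was at 1.61 and 1.24 CPM (-0.39, adjusted p = 0.447), and Pofut1, which adds the fucose itself, was at 76.6 and 73.1 CPM (-0.07, adjusted p = 0.654). Rfng (-0.11, adjusted p = 0.614) and Poglut1 (0.08, 0.715) also missed the threshold.

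Promoter sequences of the 250 bases before the RefSeq start site, 5′ to 3′ on the gene's strand, were taken from RefSeq (GRCm38.p6), where 8 of the 10 symbols had an entry. Hes1 and Heyl had none, so their promoters were not searched. The sequences shown are Lfng for its matches, Notch2 as the gene called with the block, and Dll4 as the gene without overlap between groups. RBPJ binds TGGGAA, and GTGGGAA is the longer form that contains it; capitals mark these letters on either strand (TTCCCA on the opposite strand). They lie at chr5:140607091-140607340 (+) for Lfng, chr2:119325534-119325783 (+) for Dll4 and chr3:98013288-98013537 (+) for Notch2.
Lfng: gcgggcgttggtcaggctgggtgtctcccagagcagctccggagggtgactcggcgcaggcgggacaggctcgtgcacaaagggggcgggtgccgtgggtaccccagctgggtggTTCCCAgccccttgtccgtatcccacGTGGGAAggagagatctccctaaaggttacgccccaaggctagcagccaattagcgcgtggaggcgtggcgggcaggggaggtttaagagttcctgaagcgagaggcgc
Dll4: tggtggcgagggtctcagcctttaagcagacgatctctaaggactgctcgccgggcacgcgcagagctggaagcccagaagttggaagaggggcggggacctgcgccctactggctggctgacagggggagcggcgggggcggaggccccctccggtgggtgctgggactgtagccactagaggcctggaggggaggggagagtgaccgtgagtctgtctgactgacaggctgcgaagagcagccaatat
Notch2: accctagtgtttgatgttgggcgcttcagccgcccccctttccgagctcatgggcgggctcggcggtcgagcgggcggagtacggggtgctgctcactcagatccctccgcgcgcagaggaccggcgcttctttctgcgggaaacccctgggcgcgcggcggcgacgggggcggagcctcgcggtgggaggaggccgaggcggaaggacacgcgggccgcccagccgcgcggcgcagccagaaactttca
Lfng was the only one of the 8 genes whose upstream window held TGGGAA, at 108 bases before the start as part of GTGGGAA, and on the opposite strand at 135 bases before the start. Over all 32851 windows of the same length, 21.6% held TGGGAA and 5.42% GTGGGAA on either strand. The HNF4-type letters CAAAGTCCA (0.384% of all windows) and the looser CAAAGNNCA (5.49%) were in 0 of the 8 genes' windows. These are letter matches and do not show binding, and the missing ones say only that the letters are not in these windows.

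Among 75 further genes of the pathway, grouped by role, 69 were tested. In edgeR 1 rose (Notch3) and 0 fell, and with the block 2 rose (Notch3, Epn2) and 1 fell (Hes6). Their median log2 fold change was 0.02. Without the block the unadjusted edgeR p was under 0.05 for 6 higher and 3 lower of the 69, beside 15% of all genes. Of all genes, edgeR called 0.908%, and 6.99% with the block. The groups did not overlap for 9 higher and 3 lower of the 69, beside 22.6% of all genes (12.5% higher, 10.1% lower). DESeq2 called Notch3 and Epn3 (4.94% of all genes), and limma-voom Notch3 (0.846% of all genes).

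Of 7 genes for ligand endocytosis, in which the sending cell pulls on the bound ligand, 0 were called without the block by edgeR and limma-voom, 2 were higher at an unadjusted p under 0.05, and DESeq2 called Epn3. Epn2, an epsin adaptor, measured 23.2, 22.2 and 18.6 CPM with DMSO against 27.3, 26.9 and 24.5 with 4OHT, without overlap, and rose with the block (0.30, adjusted p = 0.0478, and 0.23 without it). Epn3, a further epsin, was at 64.8 ± 12.2 and 102 ± 16.9 CPM (0.65, adjusted p = 0.133, 0.0638 with the block and 0.0101 by DESeq2). Mib2, a ubiquitin ligase for the ligands, was at 33.5 and 29.6 CPM (-0.18, adjusted p = 0.346), and Neurl1a, another ubiquitin ligase, was at 0.964 and 1.23 CPM (0.35, adjusted p = 0.427). The epsins also serve endocytosis outside the Notch pathway.

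Of 10 genes for receptor cleavage, edgeR (with or without the block), DESeq2 and limma-voom called 0. Unadjusted edgeR p-values under 0.05 were found for 1 higher and 1 lower. Adam17, a sheddase, was at 50.3 and 58.0 CPM (0.20, adjusted p = 0.171) and Psen2, a catalytic subunit of gamma-secretase, at 15.2 and 13.0 CPM (-0.23, adjusted p = 0.249). Both were without overlap between the groups, as were 22.6% of all genes. Aph1c, a gamma-secretase subunit, was at 0.422 and 0.582 CPM (0.48, adjusted p = 0.614), and Furin, which cuts the receptor during its maturation, at 114 and 121 CPM (0.08, adjusted p = 0.804).

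Of 19 genes of the nuclear complex and its corepressors 0 were called in these fits, 2 were higher at an unadjusted p under 0.05, and their median log2 fold change was 0.02. Maml2, a Mastermind coactivator, was at 4.72 ± 1.36 and 7.47 ± 0.511 CPM (0.66, adjusted p = 0.216), without overlap. Maml1 (0.14, adjusted p = 0.471), Kat2b (0.16, 0.294) and Hdac1 (0.10, 0.455) also missed the threshold. Of 11 genes for receptor turnover and inhibition edgeR (with or without the block), DESeq2 and limma-voom called 0, and 0 had an unadjusted p under 0.05 without the block. Numb, a Notch inhibitor, was at 65.0 and 55.8 CPM (-0.22, adjusted p = 0.427). The log2 fold changes of the Deltex family genes Dtx3 (0.49, adjusted p = 0.456) and Dtx4 (0.13, 0.574) and of Fbxw7, whose product targets cleaved Notch for degradation (0.13, 0.534), missed the threshold too.

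Of 6 tested genes among the other HES factors and Notch-responsive genes 0 were called without the block by edgeR, DESeq2 or limma-voom, and 2 were lower at an unadjusted p under 0.05. Hes6, a HES family member that counteracts Hes1, measured 85.4, 86.5 and 74.6 CPM with DMSO against 72.3, 69.5 and 58.9 with 4OHT, each 4OHT library below each DMSO library. Hes6 fell in the fit with the block (-0.30, SE 0.0439, adjusted p = 0.0234, and 0.217 without it) and without replicate 3 of both groups (-0.29, adjusted p = 0.0375). Olfm4, a stem cell gene known to depend on Notch activity, measured 942, 1199 and 1168 CPM with DMSO against 990.4, 741.5 and 625.1 with 4OHT. The Olfm4 groups overlapped through DMSO replicate 1 and 4OHT replicate 1 (log2 fold change -0.49, SE 0.178, adjusted p = 0.264, and 0.158 with the block). Hes5 was at 1.64 and 1.37 CPM (-0.27, adjusted p = 0.497) and Hes2 at 1.66 and 1.21 CPM (-0.42, 0.767).

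Of 8 genes listed as secretory fate factors, 0 were called by edgeR (with or without the block), DESeq2 or limma-voom. Without the block 0 had an unadjusted p under 0.05, and with it 1, Spdef, was higher (25.3% of all genes). The fit with the block and without replicate 3 of both groups, from 2 pairs, called Atoh1 and Spdef higher and Sox9 lower (18.3% of all genes). Sox9 was the most abundant of the 8, at 127 and 118 CPM (-0.11, adjusted p = 0.882). Atoh1 measured 11.6, 12.4 and 18.5 CPM with DMSO against 14.5, 14.4 and 16.3 with 4OHT, with DMSO replicate 3 the highest (log2 fold change 0.09, SE 0.181, adjusted p = 0.854). Spdef, a goblet and Paneth cell factor, was at 21.2 ± 5.50 and 26.6 ± 4.45 CPM (0.33, adjusted p = 0.496), Neurog3, the enteroendocrine factor, at 9.87 and 8.04 CPM (-0.29, 0.41) and Neurod1 at 2.24 and 1.79 CPM (-0.32, 0.618). The 7 goblet cell markers summed to 2229 to 4201 CPM in DMSO and 3619 to 6131 CPM after 4OHT, with 6 of 7 called higher with the block and 0 without it. Of 10 enterocyte markers 0 had a positive log2 fold change (median -0.53), with 3 called lower with the block and 0 without it. Of 8 enteroendocrine markers 7 had a positive log2 fold change (median 0.32), with 1 called higher with the block and 0 without it. Of 9 stem cell markers 1 had a positive log2 fold change (median -0.33). With the block 3 stem cell markers were called lower and 1 higher, and without it 1 lower, Msi1 (-1.26, adjusted p = 0.0455). Of 7 Paneth cell markers only Lyz1 was called, and it fell (-0.78, adjusted p = 0.0318). Of these 7 markers 3 had a positive log2 fold change (median -0.09). Of all genes, 49.2% had a positive log2 fold change, and with the block 3.99% were called higher and 3% lower. Without the block 0.701% were called higher and 0.206% lower. DMSO replicate 3 had the highest goblet (4201 CPM) and enterocyte (6997 CPM) marker sums of its group. The part of cell composition in the Notch gene values was not tested.

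**Figure D5:**
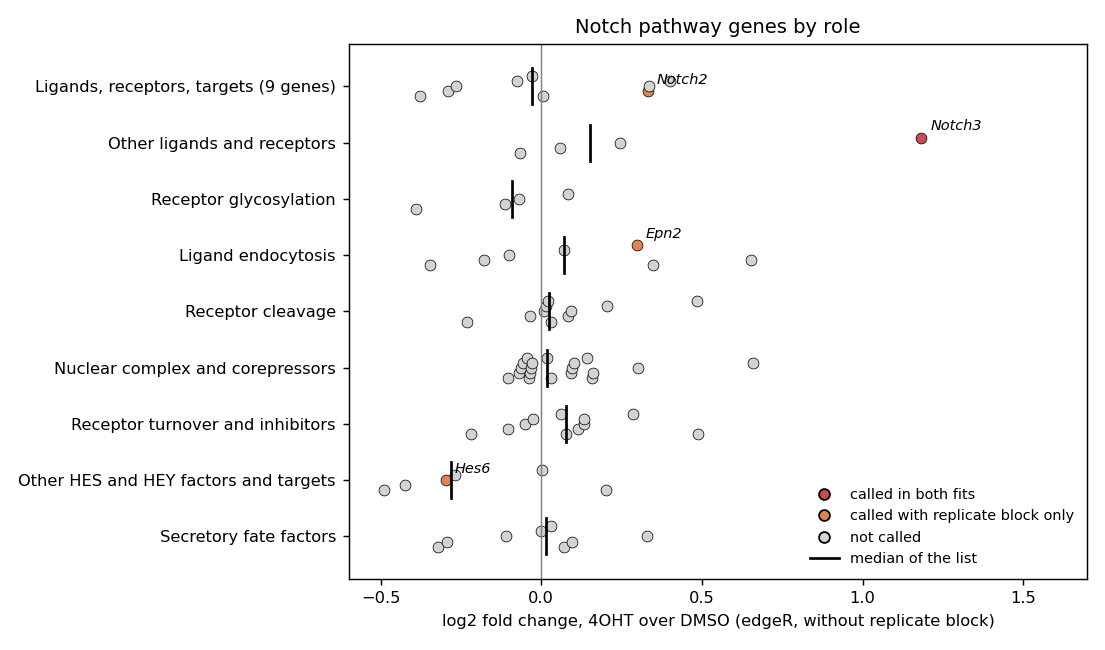
Log2 fold change of 4OHT over DMSO from edgeR (horizontal axis) for each tested Notch pathway gene, in rows by role, with the median of each row as a black bar. Notch3 is called in both fits, Notch2, Epn2 and Hes6 with the replicate block only, and the row medians lie between -0.28 and 0.15.

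Of the 9 genes 4 share exon bases with an antisense gene in GENCODE, and the strand setting of the counting is not given in the sources used here. Nrarp shares 2051 of its 2582 exon bases with Gm38287, Dll1 shares 867 of 4219 with A930024N18Rik, Dll4 shares 214 of 3852 with Gm14207, and Notch1 shares 1068 of 14232 with 0610009E02Rik. Those partners had 0.361 to 0.490 CPM, 0.534 to 1.43 CPM, 1.72 to 2.72 CPM and 0.245 to 0.478 CPM over the 6 libraries. Each was below its sense gene, with Gm14207 beside Dll4 at 12.9 to 17.1 CPM. Notch1 also shares 414 exon bases with the antisense gene Gm13568, which was not measured. These levels do not show how reads in the shared bases were counted. Notch2 shares 541 of its 10782 exon bases with Gm42820 on the same strand, which had 0.109 to 0.309 CPM.

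On GRCm38 Dll1 (ENSMUSG00000014773) lies on chromosome 17 from 15367354 to 15376872, Dll4 (ENSMUSG00000027314) on chromosome 2 from 119325784 to 119335962, Jag1 (ENSMUSG00000027276) on chromosome 2 from 137081456 to 137116644 and Jag2 (ENSMUSG00000002799) on chromosome 12 from 112907819 to 112929776. Of the receptors, Notch1 (ENSMUSG00000026923) lies on chromosome 2 from 26457903 to 26516663 and Notch2 (ENSMUSG00000027878) on chromosome 3 from 98013527 to 98150361. Hes1 (ENSMUSG00000022528) lies on chromosome 16 from 30064384 to 30067796, Lfng (ENSMUSG00000029570) on chromosome 5 from 140607320 to 140615545 and Nrarp (ENSMUSG00000078202) on chromosome 2 from 25180758 to 25183339.

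The authors' deposited table gave the 9 genes log2 fold changes from -0.377 (Lfng) to 0.40 (Jag2). In the authors' deposited table the adjusted p from edgeR ran from 0.38 (Jag2) to 1 and that from DESeq from 0.94 (Dll4) to 1.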

How the data were processed

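Libraries were poly(A)-selected and directional, per the labels' protocols. STAR 2.4.0f1, bcl2fastq 1.8.4 and GRCm38 are named in the submitters' processing notes, and the counting program is not given in the sources used here. The authors deposited raw counts per gene for the 6 libraries, a rounded normalised score per library, a log2 fold change, a mean log2 CPM, and p-values from DESeq and edgeR, per the file headers. Only the raw counts were tested. The lowest total in the table was 10 counts, so rarer genes were not analysed here.

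Counts were analysed with edgeR 4.0.16 in R 4.3.3 over the whole table (filterByExpr, 14544 genes kept and 3904 removed, TMM scaling, quasi-likelihood F test of 4OHT against DMSO, two-sided, Benjamini-Hochberg adjustment over all tested genes), and the model was tested on simulated data. CPM uses TMM-scaled library sizes, pair ratios use log2 CPM with a prior count of 2, and the SE is the log2 fold change divided by the root of F. FPKM used the union of exons in GENCODE mouse release 21. Deviations from group means correlated at 0.30, 0.33 and 0.43 between libraries of the same replicate number and at -0.37 to 0.07 otherwise, so libraries were paired by number, a pairing read from the data and not stated by the labels. DESeq2 1.42.0 and limma 3.58.1 (voom), other scalings and filters, and fits with libraries left out were the alternatives. The genes and gene lists were chosen with earlier results of these data known. Genes named are the members, Hnf4a, Atoh1, Olfm4, Neurog3, up to 4 genes with the smallest p from each pathway list, and any called there.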

Additional observations from a re-analysis of the deposited data

How the results depend on the processing

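Of 135 values of the 9 genes over 15 alternatives, 123 kept their direction and side of the threshold. Notch1 changed sign to 0.040 in the fits lacking replicate 3 of both groups, blocked or not (-0.081 to 0.052 leaving out 1 library), and Nrarp to -0.00059 with no filter (-0.065 to 0.072). Of other named genes, the log2 fold change on leaving out 1 library ran from -0.00045 to 0.42 for Notch4, -0.13 to 0.051 for Dll3, -0.33 to 0.48 for Dlk2, -0.073 to 0.16 for Furin, -0.78 to 0.34 for Hes2 and -0.032 to 0.33 for Atoh1. Dlk2 was -0.42 lacking replicate 3 of both groups, or -0.43 blocked as well. Hnf4a ran from -1.07 to -0.92 on leaving out 1 library.

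With the replicate block 1 of the 9 genes, 3 pathway genes and 1017 of all genes were called. The block changed the call of Notch2, Epn2 and Hes6 and of no other pathway gene. In a fit chosen after seeing the data, with the block and without replicate 3 of both groups, 4 of the 9 (Jag2 and Notch2 higher, Dll4 and Lfng lower), 15 pathway genes and 2678 of all genes (18.3%) were called. That pairing rests on 2 pairs. Without the block and without replicate 3 of both groups it was 0, 2 and 601 (4.1%), and with DESeq2 0, 2 and 735. Leaving out 1 library gave 0 of the 9, 0 to 1 pathway genes and 4 to 340 of all genes (340 without DMSO replicate 3). The cause was not tested.

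With the longest transcript as the length, FPKM in DMSO and after 4OHT became 7.91 and 10.4 for Jag2, 5.78 and 5.66 for Notch1 and 59.7 and 56.7 for Hes1, and 12.2 for Dll1 after 4OHT.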
